A study of Zea mays with 4 samples.

Results

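The genes described here are 5 starch synthases of the maize (Zea mays) endosperm, picked by gene ID from the 39625 IDs in the count tables. They are the granule-bound enzymes wx1 (waxy1, GRMZM2G024993) and GBSSIIa (GRMZM2G008263) and the soluble enzymes SSI (GRMZM2G129451), su2 (sugary2, which encodes SSIIa; GRMZM2G348551) and du1 (dull1, which encodes SSIII; GRMZM2G141399). All 5 had counts in every library and passed the filter on low counts. Transcripts were measured by RNA sequencing of kernels 14 days after pollination. Wild type (WT) and the zmknl1 mutant had 2 libraries each, described as biological replicates from different ears, of field-grown plants. The mutant is named after KNL1, which is a kinetochore scaffold protein. The sources used here do not state the allele, its genetic background, or whether mutant and WT kernels shared ears, and the level of the targeted gene was not analysed here. A further starch synthase named in the reference table, zSSIIb, was not analysed here.

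Starch synthases lengthen glucan chains by adding glucose from ADP-glucose. Granule-bound synthase makes amylose, the nearly linear part of starch, and kernels without wx1 activity have waxy starch made almost wholly of amylopectin. The soluble isoforms build the branched amylopectin, SSI mainly its short chains, SSIIa chains of intermediate length and SSIII long chains. Branching and debranching enzymes shape the same molecule.

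Counts in genes came to between 16595289 and 22725030 per library. WT replicate 2 stood apart: its 10 most abundant genes held 25.251% of the counts, against 6.743 to 7.77% in the other libraries. Alignments to several places made up 23.926% of all entries in its count output, against 10.863 to 13.489%. Levels are given as CPM, counts relative to a library size scaled by TMM (trimmed mean of M-values; factor 0.707 for WT replicate 2 and 1.1 to 1.16 for the others). Zeins and other markers of the starchy endosperm were detected for 9 of 9 IDs, led by z1C2 (GRMZM2G397687) and bz15 (GRMZM2G086294). Of the 9 embryo IDs, lec1 and wus1 were at 0 in all 4 libraries. The 9 together summed to 2968 and 713 CPM for WT, against 298 and 173 CPM for the mutant, led by ole1 and glb3. In bulk kernels, fewer cells of a type and less RNA per cell cannot be told apart.

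All 5 starch synthases measured lower in zmknl1 than in WT, and the granule-bound pair lay farthest below. GBSSIIa was 9.44-fold lower, wx1 5.2-fold, su2 2.57-fold, SSI 1.61-fold and du1 1.53-fold. The main test, edgeR's quasi-likelihood test with Benjamini-Hochberg adjustment over 19519 genes, called 0 of the 5 at an adjusted p under 0.05. It called 4 genes in all (0.0205%), 1 of them lower (0.00512%). At an unadjusted p under 0.05 it listed wx1, GBSSIIa and su2, and 5.30% of all tested genes were lower at that limit. DESeq2, the tool the submitters named, called wx1 and GBSSIIa lower, 2 of the 5, against 1.95% of all tested genes. limma-voom called 0 of the 5, and 0 genes in all (0.00% lower), with 2183 at an unadjusted p under 0.05. In 4 of the 5, both zmknl1 libraries lay below both WT libraries, which held for 20.0% of all tested genes. Without the scaling factors this was so for 3 of the 5, against 8.72%. The median log2 fold change was -1.36 over the 5 and 0.01 over all tested genes.

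**Figure D1:**
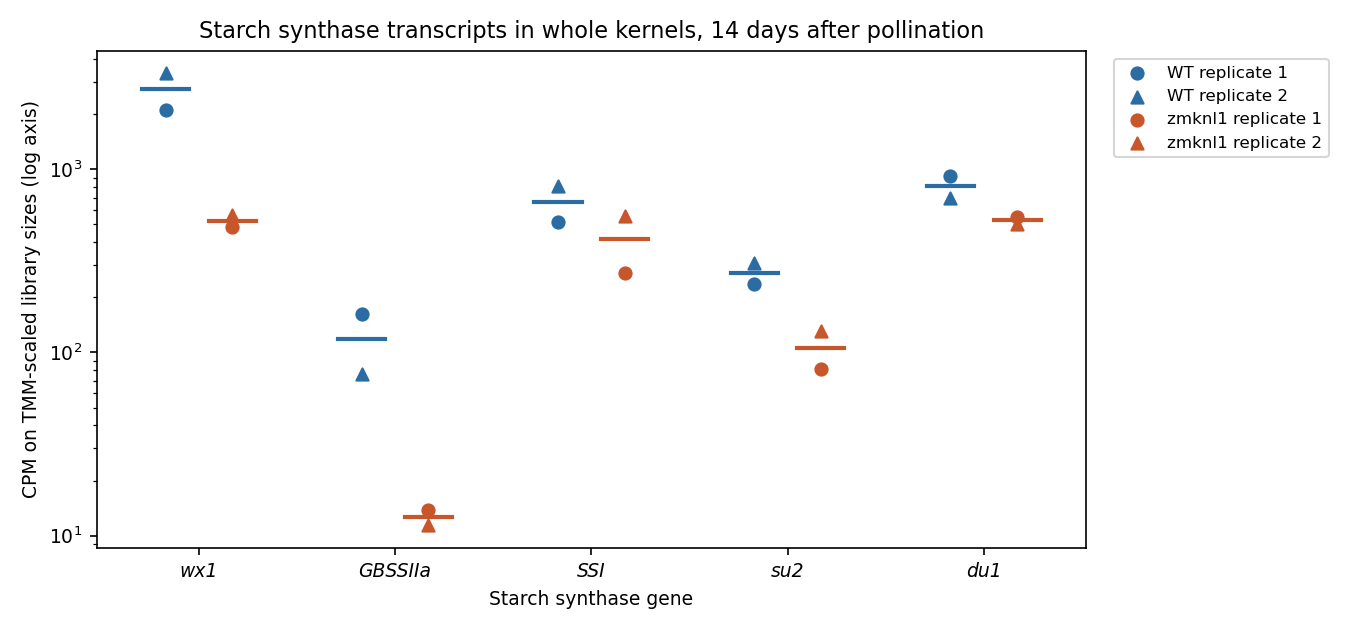
Level of each starch synthase transcript in CPM on TMM-scaled library sizes (log axis) by gene; circles are replicate 1, triangles replicate 2, blue WT and orange zmknl1, and short lines are the means of 2 libraries. The genotypes do not overlap for wx1, GBSSIIa, su2 and du1, and they overlap for SSI; levels should be compared within a gene, since they are not divided by transcript length.

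The wx1 gene encodes the granule-bound synthase of the starchy endosperm. Its counts were 48137 and 39199 in WT replicates 1 and 2, against 11090 and 14090 in zmknl1 replicates 1 and 2. The scaled levels were 2114 and 3342 CPM for WT, against 486 and 563 CPM for the mutant. Both mutant libraries were far below both WT libraries, and they were closer to each other (1.16-fold apart) than the WT libraries were (1.58-fold). Without the scaling factor the WT libraries nearly coincided, at 2332 and 2362 CPM, against 563 and 620 CPM for the mutant. The log2 fold change was -2.38 ± 0.52 (SE, n = 2 per genotype). Its adjusted p was 0.251 by edgeR, 1.33e-05 by DESeq2 and 0.197 by limma-voom. Of the tested genes, 2.94% had a lower log2 fold change.

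The call of wx1 depended on the tool and on single libraries. DESeq2 called it in 3 of the 4 fits that left out a library. The exception left out zmknl1 replicate 1, with a DESeq2 adjusted p of 0.0584. edgeR called wx1 without WT replicate 1 (adjusted p = 0.0234) and without WT replicate 2 (adjusted p = 0.035), and did not when a zmknl1 library was left out.

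GBSSIIa encodes a second granule-bound synthase, an isoform that in cereals is described mainly from tissues other than the starchy endosperm. Its counts were 3685 and 893 for WT, against 315 and 286 for the mutant. The scaled levels were 162 and 76.1 CPM for WT, against 13.8 and 11.4 CPM for the mutant. Every WT value was above every mutant value, and the WT libraries differed from each other by 2.13-fold, more than for any other of the 5 genes. Its log2 fold change of -3.24 ± 0.50 (SE, n = 2 per genotype) was the lowest of the 5 with all libraries (without WT replicate 1 it was -2.6, against -2.68 for wx1), and 1.59% of tested genes had a lower one. The adjusted p was 0.145 by edgeR, 3.14e-07 by DESeq2 and 0.18 by limma-voom. Each of the 4 DESeq2 fits that left out 1 library also called it, with adjusted p from 7.55e-12 to 0.00613. edgeR called it without WT replicate 1 and without WT replicate 2 (adjusted p = 0.0208 and 0.00339), and did not when a zmknl1 library was left out.

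Markers of other kernel tissues moved beside these genes. The summed level of 9 embryo IDs was 2968 and 713 CPM for WT, against 298 and 173 CPM for the mutant. The same falling order of libraries held for GBSSIIa, for du1 and for the aleurone sum below, and its share over all tested genes was not computed. Of these 9 IDs, 6 were tested, and 4 of the 6 were lower in both mutant libraries than in both WT libraries (20.0% of all tested genes). By edgeR 5 of the 6 had a log2 fold change below 0 and 1 had one above 0. The most abundant were ole1 (GRMZM2G337229) and glb3 (GRMZM2G410134). The 7 aleurone IDs, led by dek1 (GRMZM2G321753) and nkd1 (GRMZM2G129261), summed to 397 and 264 CPM for WT, against 232 and 196 CPM for the mutant. Of these, 5 were tested, with 4 of the 5 below (20.0% of all tested genes), and c1 was at 0 in all libraries. Without the scaling factor 3 of the 5 were below (8.72% of all tested genes), and the sums overlapped, at 438 and 187 CPM for WT, against 269 and 216 CPM for the mutant. The markers of the starchy endosperm itself overlapped in sum, at 7898 and 40565 CPM for WT, against 8470.1 and 7470.3 CPM for the mutant. Singly, 4 of the 9 were below, with or without the scaling factor (20.0 and 8.72% of all tested genes). By edgeR 8 of the 9 had a log2 fold change below 0, with a median of -1.46. The 10 IDs of the basal transfer layer, led by bap2 (GRMZM2G152655) and betl10 (GRMZM2G091445), summed to 48.7 and 61.6 CPM for WT, against 238 and 162 CPM for the mutant, with betl1 at 0 in all libraries. Of these, 9 were tested, and 8 of the 9 were above (21.9% of all tested genes). Without the scaling factor this also held for 8, against 35.4%. The 4 IDs of the embryo-surrounding region, led by esr1 (GRMZM2G315601) and esr6 (GRMZM2G048353), overlapped at 0.264 and 14.2 CPM for WT, against 3.9 and 7.67 CPM for the mutant. Of the 3 maternal IDs, p1 (GRMZM2G084799) and bz1 were at 0 in all libraries, and a1 (GRMZM2G026930) was detected in zmknl1 replicate 1 alone, at 2.28 CPM. The part of these tissues in the starch synthase levels was not tested.

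The su2 gene encodes SSIIa, the soluble isoform whose loss raises the share of amylose in the kernel. Its counts were 5411 and 3596 for WT, against 1862 and 3263 for the mutant. The scaled levels were 238 and 307 CPM for WT, against 81.6 and 130.3 CPM for the mutant. The genotypes did not overlap, with or without the scaling factor (unscaled 262 and 217 against 94.5 and 144 CPM). The log2 fold change was -1.36 ± 0.42 (SE, n = 2 per genotype), with an adjusted p of 0.342 by edgeR and 0.0691 by DESeq2. Leaving out WT replicate 1 gave a DESeq2 call (adjusted p = 0.0426), and leaving out any other library did not.

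The du1 gene encodes SSIII, whose loss gives dull kernels. Its counts were 20798 and 8207 for WT, against 12571 and 12644 for the mutant. The scaled levels, 914 and 699.8 CPM for WT against 551 and 505 CPM for the mutant, did not overlap. Without the scaling factor the levels were 1008 and 495 CPM for WT, against 638 and 556 CPM, so the mutant libraries then lay between the WT libraries. The log2 fold change of -0.61 ± 0.42 (SE, n = 2 per genotype) did not pass by edgeR (adjusted p = 0.705) or by DESeq2 (adjusted p = 0.661), and 22.1% of tested genes had a lower one. It was -0.33 without the scaling factor, where the median of all tested genes was 0.34.

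SSI encodes the soluble isoform of short chains. Its counts were 11786 and 9535 for WT, against 6225 and 13885 for the mutant, or 518 and 813 CPM against 273 and 555 CPM. Replicate 2 of zmknl1 lay above WT replicate 1, so the genotypes overlapped, and the mutant libraries differed from each other by 2.03-fold. Without the scaling factor the levels were 571 and 575 CPM for WT, against 316 and 611 CPM for the mutant. Replicate 2 of zmknl1 then lay above both WT libraries. The log2 fold change of -0.69 ± 0.51 (SE, n = 2 per genotype) did not pass by edgeR (adjusted p = 0.733) or by DESeq2 (adjusted p = 0.715). It was -0.3 without the scaling factor, where the median of all tested genes was 0.34. Leaving out a WT library in edgeR gave -0.98 (replicate 1) or -0.31 (replicate 2), and leaving out a mutant library gave -0.26 (replicate 1) or -1.29 (replicate 2).

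Shares within a library do not depend on how libraries are scaled, and the make-up of the starch synthase counts differed between the genotypes. The 5 genes together held 89817 and 61430 counts for WT, or 0.435 and 0.37% of all gene counts, against 32063 and 44168 for the mutant, or 0.163 and 0.194%. Of this sum wx1 held 53.6% (95% exact Clopper-Pearson interval 53.3 to 53.9) and 63.8% (63.4 to 64.2) in WT, against 34.6% (34.1 to 35.1) and 31.9% (31.5 to 32.3) in zmknl1. The intervals cover counting error only, and the gap between the genotypes was wider than the spread between replicates. The GBSSIIa share was 4.1 and 1.45% for WT, against 0.982 and 0.648% for the mutant, which did not overlap. The du1 share was 23.2 and 13.4% for WT, against 39.2 and 28.6% for the mutant. The SSI share was 13.1 and 15.5% for WT, against 19.4 and 31.4% for the mutant. SSI and du1 thus held a larger part of a smaller sum in each mutant library. The su2 share overlapped, at 6.02 and 5.85% for WT, against 5.81 and 7.39% for the mutant. With 2 libraries against 2 the smallest p of an exact two-sided permutation test is 0.333, which 4 of the 5 shares reached, and su2 had 1.0. With wx1 left out of the sum, the SSI share overlapped, at 28.3 and 42.9% for WT, against 29.7 and 46.2% for the mutant, and so did that of du1, at 49.9 and 36.9% against 59.9 and 42.0%. In that sum su2 did not overlap and was smaller in the mutant, at 13.0 and 16.2% for WT, against 8.88 and 10.8%.

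**Figure D2:**
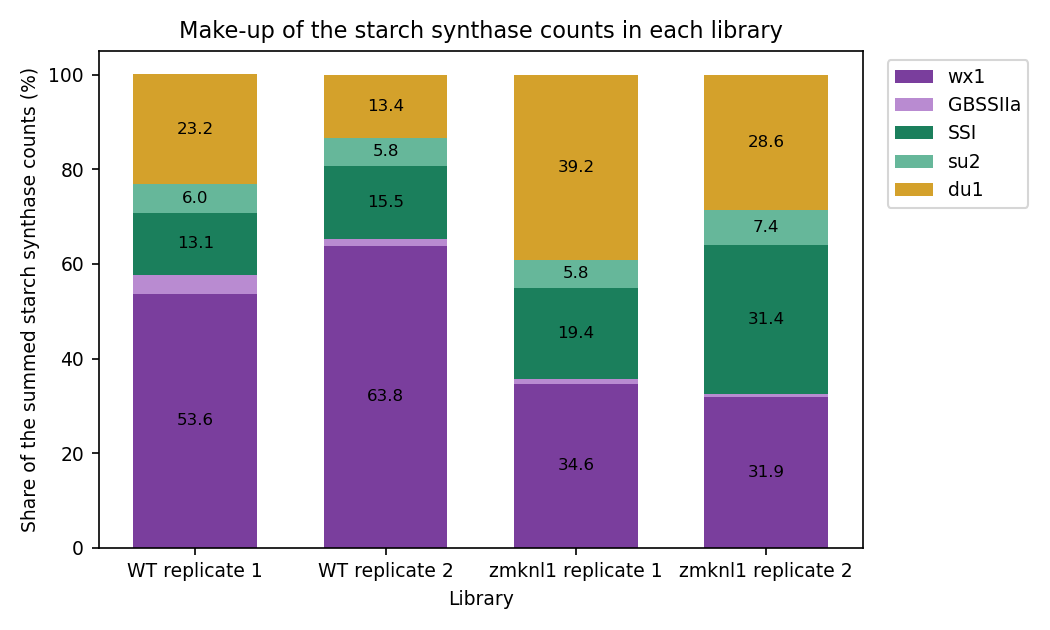
Share of each gene in the summed counts of the 5 starch synthases (percent, y axis) in each library (x axis); shares are of counts, not divided by transcript length. The wx1 block is 53.6 and 63.8% for WT, against 34.6 and 31.9% for zmknl1, and the SSI and du1 blocks are larger in zmknl1.

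Taken as classes, the granule-bound pair stood lower against the soluble isoforms in the mutant. Most granule-bound counts were of wx1, so the class values mainly restate that gene. It held 48137 of 51822 and 39199 of 40092 of them for WT, and 11090 of 11405 and 14090 of 14376 for the mutant. Per soluble count there were 1.36 and 1.88 granule-bound counts for WT, against 0.552 and 0.483 for the mutant, with no overlap and a gap larger than the spread within either genotype. In level, the granule-bound class was at 2276 and 3418 CPM for WT, against 499.5 and 574 CPM for the mutant, and without the scaling factor at 2511 and 2416 CPM, against 579 and 633 CPM. The soluble class was at 1669 and 1819 CPM for WT, against 905 and 1190 CPM for the mutant. Its order depended on the scaling, since without the factor the values of 1841 and 1286 CPM for WT, against 1048 and 1311 CPM for the mutant, overlapped.

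Among 10 count ratios between pairs of the 5 genes, 8 did not overlap between the genotypes. The ratios reuse the same 5 genes, so they are not independent, and the share for other gene pairs was not computed. All 6 ratios of a granule-bound to a soluble gene were lower in both mutant libraries. The ratio of wx1 to SSI was 4.08 and 4.11 for WT, against 1.78 and 1.01 for the mutant. The ratio of wx1 to su2 was 8.9 and 10.9, against 5.96 and 4.32, and that of wx1 to du1 was 2.31 and 4.78, against 0.882 and 1.11. GBSSIIa moved the same way: its ratio to du1 was 0.177 and 0.109 for WT, against 0.0251 and 0.0226 for the mutant. Inside the granule-bound pair the ratio of wx1 to GBSSIIa overlapped, at 13.1 and 43.9 for WT, against 35.2 and 49.3. Among the soluble isoforms su2 was lower against SSI, with 2.18 and 2.65 SSI counts per su2 count for WT, against 3.34 and 4.26. The ratio of su2 to du1 was 0.26 and 0.438 for WT, against 0.148 and 0.258, so that a WT and a mutant library nearly met. That of SSI to du1 overlapped, at 0.567 and 1.16 against 0.495 and 1.1. Exact two-sided permutation p-values were 0.333 for the 8 ratios that did not overlap, the smallest this design allows (0.417 after Benjamini-Hochberg adjustment over the 10), and 0.667 for the other two.

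Profiles over the 4 libraries were compared as log2(CPM + 1) centred on each gene's mean. Among the 5, SSI and su2 were most alike, with a root-mean-square difference of 0.359, and GBSSIIa and SSI least, at 1.38. Candidates for likeness were 1444 tested genes with a name and a mean CPM of at least 5. The nearest to su2 was bt2 (GRMZM2G068506, difference 0.0713), the small subunit of ADP-glucose pyrophosphorylase, followed by RTE2 (GRMZM2G082203, 0.105) and AR6 (GRMZM2G060952, 0.117). The nearest to wx1 were ARGOS9 (GRMZM2G082943, 0.0481), AUX34 (GRMZM2G163848, 0.19) and GRF1 (GRMZM2G178261, 0.232). ARGOS9 was at 7.29 and 12.1 CPM for WT, against 0.964 and 1.4 CPM for the mutant, levels at which the added 1 compresses the profile. The nearest to GBSSIIa were mips2 (GRMZM2G004528, 0.105), GPDH4 (GRMZM6G161711, 0.2) and ERECTA (GRMZM5G809695, 0.207). Of these mips2 was at 987 and 559 CPM for WT, against 106 and 85.8 CPM for the mutant. ERECTA was at 14.6 and 9.46 CPM for WT, against 0.482 and 0.2 CPM for the mutant. Its profile is compressed by the added 1 as well, and its edgeR log2 fold change was -5.13, against -3.24 for GBSSIIa. SSI was nearest to met2 (GRMZM2G025592, 0.0463), mad2 (GRMZM2G047143, 0.108) and tha9 (GRMZM2G128432, 0.129). For du1 they were MIK (GRMZM2G027756, 0.0325), RR10 (GRMZM2G126834, 0.0541) and Ann10 (GRMZM2G067752, 0.0578). With 4 libraries this likeness is a description only.

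The other genes of the starch pathway also measured mostly lower in zmknl1. Of 17 tested IDs from sucrose cleavage to starch phosphorylase, 15 had a log2 fold change below 0, with a median of -0.85. Both mutant libraries were below both WT libraries for 12 (20.0% of all tested genes) and above for 1 (21.9% of all tested genes). Without the scaling factor these counts were 9 (8.72% of all tested genes) and 1 (35.4%). edgeR called 0 of the 17. At an unadjusted p under 0.05 it listed 7 lower (5.30% of all tested genes) and 1 higher (4.94%). DESeq2 called 4 lower (1.95% of all tested genes) and 0 higher (1.53% of all tested genes). The sucrose synthases sh1 and sus1 cleave the sucrose that reaches the endosperm. The sh1 transcript (GRMZM2G089713) was at 12648 and 30117 CPM for WT, against 3233 and 7378 CPM for the mutant, with a DESeq2 adjusted p of 0.0172. The sus1 transcript (GRMZM2G152908) was at 1764 and 2250.1 CPM, against 527 and 698 CPM, with a DESeq2 adjusted p of 0.00357. ADP-glucose, the substrate of the starch synthases, comes from ADP-glucose pyrophosphorylase. Its small subunit gene bt2 was at 3702 and 5315 CPM for WT, against 1263 and 2027 CPM for the mutant (DESeq2 adjusted p = 0.0417). Another of its genes, agpsl1 (GRMZM2G163437), was at 32.5 and 13.5 CPM, against 5.83 and 4.75 CPM (DESeq2 adjusted p = 0.0336). None of these 4 calls held in every DESeq2 fit with a library left out. The call of sh1 was lost when WT replicate 2 (adjusted p = 0.0895) or zmknl1 replicate 1 (0.679) was left out, and its edgeR log2 fold change of -2.01 became -1.24 in the first case. The call of bt2 held only when WT replicate 1 was left out (DESeq2 adjusted p = 0.0101), and that of agpsl1 only when WT replicate 2 was (DESeq2 adjusted p = 0.00235). Leaving out WT replicate 1 put agpsl1 at -1.36 in edgeR, from -2.12. The call of sus1 held when either WT library was left out, and was lost when a zmknl1 library was (DESeq2 adjusted p = 0.49 and 0.138 without replicates 1 and 2).

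**Figure D3:**
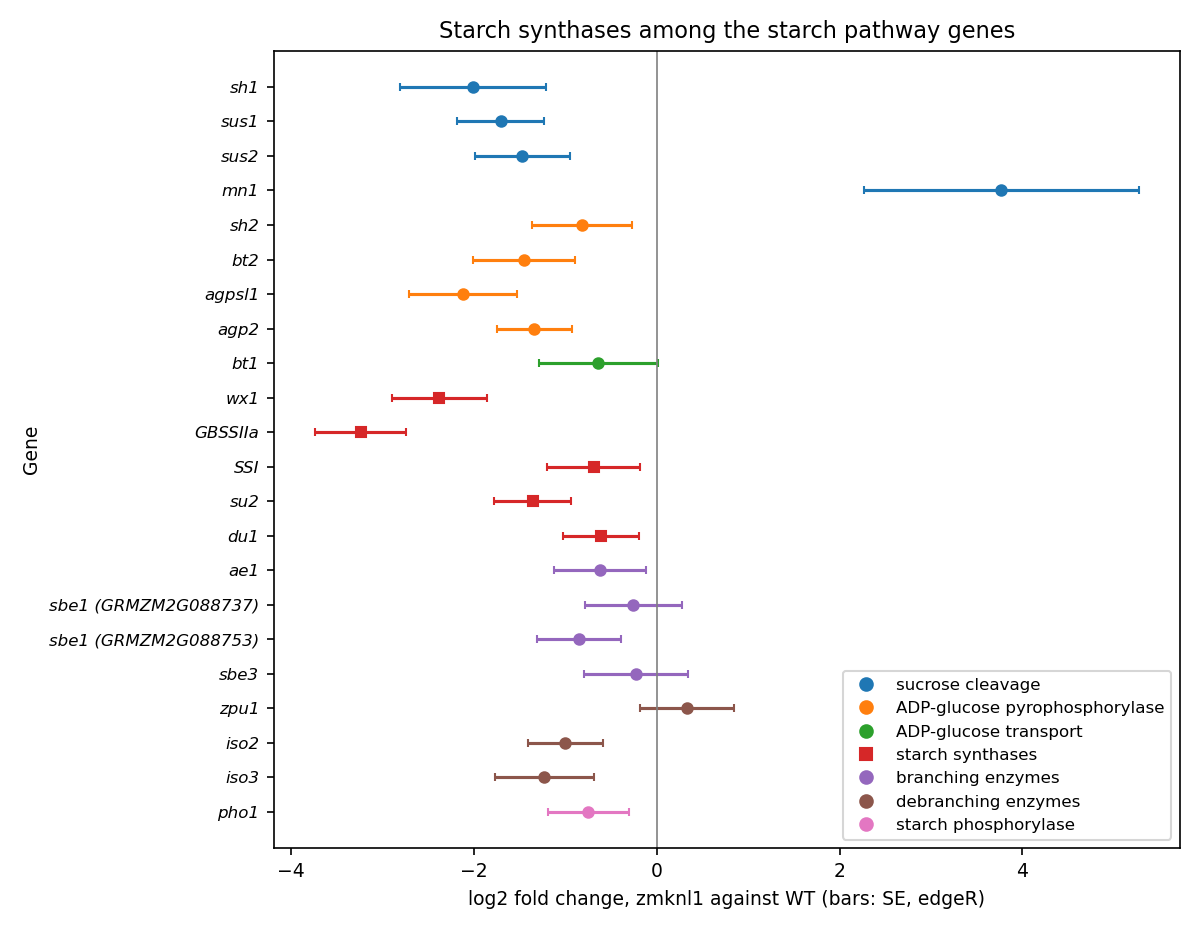
Log2 fold change of zmknl1 against WT (x axis; edgeR, bars are SE, 2 libraries per genotype) for the 5 starch synthases (squares) and 17 other starch pathway IDs (circles), in the order of the pathway (y axis). In this fit with all libraries GBSSIIa and wx1 have the lowest values, mn1 and zpu1 lie above 0, and the fitted value of mn1 depends on its 0 counts in WT replicate 1.

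Further pathway genes with high counts did not pass in edgeR or DESeq2. The large subunit gene sh2 (GRMZM2G429899) was at 3683 and 6026 CPM for WT, against 2734 and 2768 CPM for the mutant. The branching enzyme gene ae1 (GRMZM2G032628) was at 3001 and 3336 CPM, against 2203 and 1920.0 CPM, and overlapped without the scaling factor. The more abundant of 2 IDs named sbe1, a branching enzyme gene (GRMZM2G088753), was at 1224 and 1534 CPM, against 874 and 652 CPM. The 1 pathway gene above both WT libraries was mn1 (GRMZM2G119689), a cell wall invertase gene of the transfer layer, with 0 and 16 counts for WT, against 185 and 235 for the mutant (DESeq2 adjusted p = 0.0702). The same ID is in the basal transfer layer list, so it is also 1 of the 8 IDs counted there.

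**Figure D4:**
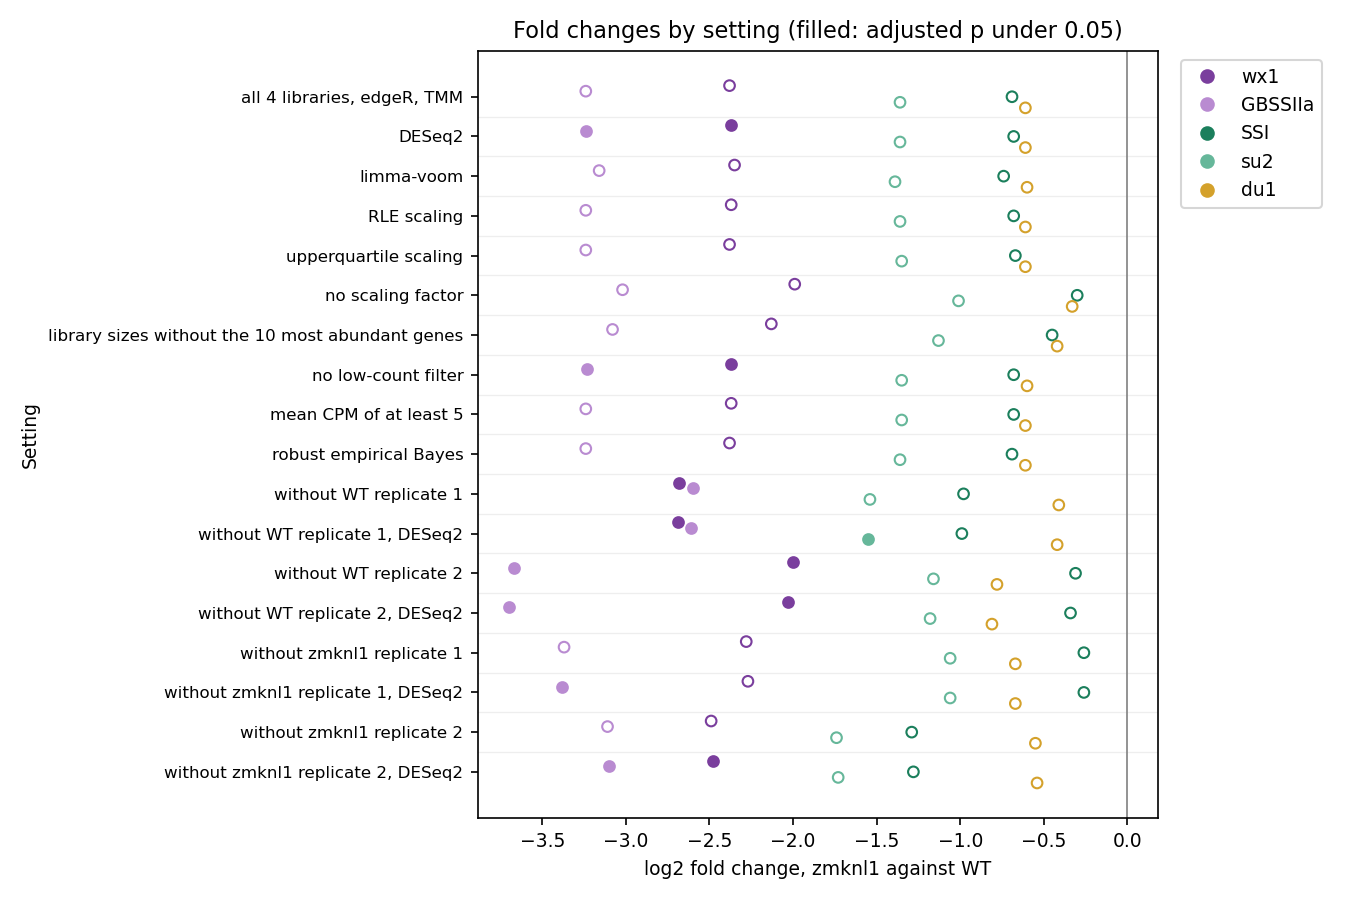
Log2 fold change of each starch synthase (x axis) by edgeR with all 4 libraries and TMM scaling (top) and under 17 other settings (y axis); filled circles have an adjusted p under 0.05, and the fit with a replicate block is not plotted. Every value lies below 0, and the filled circles belong to wx1, GBSSIIa and, in 1 setting, su2.

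The plot of fold changes by setting holds every fit run apart from the fit with a replicate block. That fit called wx1, GBSSIIa and su2, 3 of the 5, against 375 of 19519 genes called lower, and is described with the other alternatives. SSI and du1 passed under none of the settings plotted, and all values of the 5 genes were below 0, also without a scaling factor, where the median of all tested genes moved up by 0.33. edgeR without a low-count filter called wx1 and GBSSIIa, 2 of the 5, against 1.51% of all genes called lower. It also called these 2 when WT replicate 1 (0.485% of all genes called lower) or WT replicate 2 (1.82%) was left out, and 0 of the 5 when zmknl1 replicate 1 (0.0576%) or replicate 2 (0.0580%) was. DESeq2 with WT replicate 1 left out called 3 of the 5 (0.955%), and with WT replicate 2 left out it called 2 (3.45%). Leaving out zmknl1 replicate 1 gave 1 DESeq2 call (0.735%), and leaving out zmknl1 replicate 2 gave 2 (0.711%). In each of these fits the genotype with 1 library left is assumed to vary like the other.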

How the data were processed

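Kernels of WT and zmknl1 were grouped by their titles, with 2 libraries per genotype. Total RNA was extracted with TRIzol, per the labels' protocols. The deposited files hold raw read counts per gene, 1 library per file. The authors used Trimmomatic 0.36 for trimming, HISAT2 2.0.1 for mapping to B73 RefGen_v3 and HTSeq for counting, per the series' design text and the submitters' processing notes. No strand setting of the counting is stated, so reads of overlapping or antisense genes cannot be told apart. The 5 closing lines of each file, reads assigned to no gene, were left out. Alignments to several places (10.863 to 23.926% of all entries in the count output of a library) were not counted, which can lower genes with close copies.

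The filter on low counts was filterByExpr of edgeR 4.0.16 (R 4.3.3) with its defaults, followed by TMM scaling. Genotypes were compared by the quasi-likelihood F-test of edgeR, two-sided, without covariates, with Benjamini-Hochberg adjustment over 19519 genes at 0.05. Each SE was derived from a fold change and its F value. The biological coefficient of variation was 0.536. Alternatives were DESeq2 1.42.0 on the same genes, limma-voom (limma 3.58.1), other scalings and filters, robust empirical Bayes, a replicate block, and fits with 1 library left out. Leaving out libraries in DESeq2 was added after the data were seen. The gene tests were run on simulated counts first. Shares are of raw counts.

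Names came from a table of another assembly (Zm-B73-REFERENCE-NAM-5.0), which held 19060 of the 39625 IDs, and its coordinates were not used. Of the starch pathway symbols searched, 17 IDs were matched, and matches whose synonyms named another gene were removed. Some symbols were left without an ID. Matched were 4 of 6 for ADP-glucose pyrophosphorylase, 3 of 4 for branching, 3 of 6 for debranching and 1 of 3 for phosphorylase. The debranching symbol su1 was not matched. The 5 genes, the lists and the rule for named genes were chosen with earlier results of these data known. By that rule the text names all 5 starch synthases, pathway genes called by edgeR or DESeq2 and the next 3 by mean CPM, the 3 nearest profiles per gene, and the 2 most abundant IDs per marker list; mn1, the only pathway gene above both WT libraries, was named after its values were seen.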

Additional observations from a re-analysis of the deposited data

How the results depend on the processing

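No alternative turned the direction of the fold changes of the 5 starch synthases. The number of them called, 0 in the main test, was 2 in DESeq2 and 2 without a low-count filter, and with 1 library left out 0 to 2 in edgeR and 1 to 3 in DESeq2. Over all genes, 4 calls became 679 in DESeq2, 0 in limma-voom (2183 at an unadjusted p under 0.05), 715 without a filter and 0 in edgeR without a scaling factor (2096 at an unadjusted p under 0.05). With 1 library left out edgeR made 19 to 805 calls and DESeq2 184, 224, 405 and 1965. Of the other pathway genes, 0 calls became 4 in DESeq2 and 2 without a filter, and 0 to 6 with 1 library left out. The cause was not tested. The labels tie no replicate number to a shared ear or day, and the deviations of same-numbered libraries correlated at 0.365 over 19519 genes. With the replicate block edgeR called 642 of 19519 genes, 375 lower and 267 higher. Among them were 7 pathway genes and 3 starch synthases, wx1 (-2.35), GBSSIIa (-3.15) and su2 (-1.39, edgeR adjusted p = 0.0254). The wx1 log2 fold change was -2.37 in DESeq2 and -2.37 without a filter; with 1 library left out it was -2.68 to -2.0 in edgeR, and -2.69, -2.48, -2.27 and -2.03 in DESeq2. GBSSIIa had -3.24 in DESeq2 and -3.23 without a filter; with 1 library left out it had -3.67 to -2.6 in edgeR, and -3.7, -3.38, -3.1 and -2.61 in DESeq2. For su2 edgeR then gave -1.74 to -1.06, with -1.55 in DESeq2 without WT replicate 1. The median over the 5 was -1.01 without a scaling factor and -1.13 on library sizes without the 10 most abundant genes, settings that moved the median of all genes up by 0.33 and 0.22. With 1 library left out it was -1.74 to -1.06 in edgeR and -1.73 to -1.06 in DESeq2. The pathway median was -0.49 and -0.62 under the same scalings, and with 1 library left out -1.08 to -0.89 in edgeR and -1.07 to -0.88 in DESeq2. The su2 share differed by 0.658 points over the 5 genes and by -4.72 points in the sum without wx1, which no longer holds the gene with the largest change in share; with 1 library left out it ranged from -0.132 (without zmknl1 replicate 2) to 1.45 points. The difference in the GBSSIIa share was -0.639 points without WT replicate 1 and -3.29 without WT replicate 2, and that of SSI 5.09 points without zmknl1 replicate 2 and 17.1 without zmknl1 replicate 1. Shares per coding length were not run. Counting error is small at these depths, and the 2 libraries per genotype limit the tests.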
